A study of Mus musculus with 3 samples.

Results

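The hairpins Mir183, Mir96 and Mir182 form a cluster of microRNAs (miRNAs, small RNAs that silence matching messengers) and are known to be cut from one primary transcript. Its members were taken by name: every row for the 5p or 3p strand of miR-183, miR-96 or miR-182. That gave 6 of the 1251 miRNAs listed. They were measured by small RNA sequencing in white fat of the epididymal (visceral) depot from 3 C57BL/6J mice, which carry the titles' numbers 1, 3 and 9. The 3 mice make up 1 group. From an age of 5 to 6 weeks they were fed for 11 weeks on a high-fat diet with 6.75% EPA (eicosapentaenoic acid, a fish oil fatty acid), and the labels do not say whether by energy or weight. Fat, protein and carbohydrate gave 45%, 20% and 35% of the energy, and food was withheld for 4 h before tissue was taken. No control diet was analysed here, so no value measures an effect of EPA. Only the titles and a note on group size mark the samples as separate animals, so the p-values measure only how far these samples scatter, and part of that may be technical.

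The cluster is best known from sensory cells of the ear, eye and nose, and a seed mutation in miR-96 causes hearing loss. In liver cells the sterol-regulated transcription factor SREBP-2 is known to switch the transcript on, and miR-96 and miR-182 repress Insig2 and Fbxw7, which hold SREBP activity down. All 3 5p strands are also reported to repress Foxo1, a transcription factor of insulin signalling that restrains adipocyte formation. A miRNA finds its targets mainly through its seed, bases 2 to 8, and one strand of each hairpin is usually kept while the other is degraded.

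The mature sequences show how close the 5p members are, and are printed 5′ to 3′ from RefSeq (GRCm38.p6) with the seed in capitals. All 6 members matched an entry.
miR-183-5p: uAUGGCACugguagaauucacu
miR-96-5p: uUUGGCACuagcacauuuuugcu
miR-182-5p: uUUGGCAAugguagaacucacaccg
miR-183-3p: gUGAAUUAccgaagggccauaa
miR-96-3p: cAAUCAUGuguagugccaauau
miR-182-3p: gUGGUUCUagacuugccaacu

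Counted from base 1 at the 5′ end with no gap, miR-182-5p and miR-183-5p were equal at 18 of 22 positions (81.8%). The differences from miR-182-5p to miR-183-5p were U2A, A8C, C17U and A22U, and the first pair of these lies in the seed. miR-96-5p matched miR-182-5p at 12 of 23 positions and miR-183-5p at 13 of 22. Within the 7-base seed, miR-96-5p shared 6 positions with each of the others, while miR-182-5p and miR-183-5p shared 5. The seed of miR-96-5p differed from that of miR-182-5p by A8C alone. No 2 members had the same seed. In RefSeq the seed of miR-96-5p is also carried by miR-1271-5p and that of miR-96-3p by miR-3475-5p, and both were not analysed here. The remaining 4 seeds occurred in no other RefSeq mouse miRNA.

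All 3 hairpins lie on the minus strand of chromosome 6 within 3820 bases (GRCm38, the assembly of mm10). In the direction of transcription, Mir183 at chr6:30169668-30169737 comes first. Mir96 at chr6:30169446-30169551 follows after 116 bases, and Mir182 at chr6:30165918-30165992 after a further 3453 bases. In the GENCODE M21 annotation no gene other than these overlaps them. The nearest annotated gene is Rncr4, a long noncoding RNA on the plus strand 3155 bases away. Nrf1, a transcription factor gene on the plus strand, ends 12459 bases away on the other side. The hairpins are shown from RefSeq with the 5p strand in capitals, because that strand carried every value above the floor of the scale described next.
Mir183: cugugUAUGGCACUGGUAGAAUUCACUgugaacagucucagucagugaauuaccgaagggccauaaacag
Mir96: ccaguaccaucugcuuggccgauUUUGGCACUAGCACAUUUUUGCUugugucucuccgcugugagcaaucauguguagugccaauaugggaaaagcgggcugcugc
Mir182: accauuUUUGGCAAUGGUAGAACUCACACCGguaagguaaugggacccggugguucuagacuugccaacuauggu

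Levels are given on the deposited scale, the log2 of a normalized count plus 10. A value of 3.32 is therefore the floor, where a miRNA is listed at 0. The number above the floor was 316 in mouse 1, 317 in mouse 3 and 336 in mouse 9. The lowest normalized count above the floor was 3.40, 2.67 and 0.661 in the same order. The depth of each library is unknown, since the values were normalized before deposit, so no counting interval is given. The 3 columns hold almost the same set of values in different order, with 85 of the top 100 ranks equal within 1e-06. A difference between mice is therefore nearly a difference of ranks.

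miR-182-5p was the main product of the cluster in this fat. Its level was 11.29, 11.94 and 9.59 log2 units in mice 1, 3 and 9. These values correspond to 2488, 3908 and 762 normalized counts, so mouse 3 was highest and mouse 9 clearly lowest. The mean was 10.94 ± 1.21 log2 units (SD, n = 3), which placed miR-182-5p at rank 71 by mean. Its ranks in mice 1, 3 and 9 were 66, 54 and 99.

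miR-183-5p was present at a lower and steadier level. It stood at 7.73, 8.21 and 7.75 log2 units in mice 1, 3 and 9, or 202, 285 and 206 normalized counts. Mouse 3 was again highest, and mice 1 and 9 lay within 0.03 log2 units of each other. The mean was 7.90 ± 0.27 log2 units (SD, n = 3) at rank 147, with ranks of 157, 140 and 156 in mice 1, 3 and 9. Its highest value lay below the lowest value of miR-182-5p.

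miR-96-5p, the strand of the middle hairpin, was listed at the floor in all 3 mice, although it is taken to share its transcript with the other hairpins. The same held for miR-182-3p, miR-183-3p and miR-96-3p. These 4 strands could not be detected at the depth used, and a value at the floor is no proof of absence. Of all 1251 rows, 22.9% were above the floor in the 3 mice, against 2 of the 6 cluster members. miR-96-5p has a G and C content of 39.1%, against 40.9% for miR-183-5p and 48.0% for miR-182-5p. Among 104 rows with a RefSeq sequence of over 35% and up to 40%, 25 were above the floor in all mice (24.0%). The shares were 27.5% of 138 rows for over 40% up to 45%, and 30.4% of 260 rows for over 45% up to 50%. They did not rise throughout, with 17.8% of 73 rows up to 35% and 24.2% of 128 rows for over 50% up to 55%. Beyond that they were 25.7% of 113 rows up to 60% and 18.4% of 185 rows over 60%. The part of base composition in the absence of miR-96-5p was not tested.

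**Figure D1:**
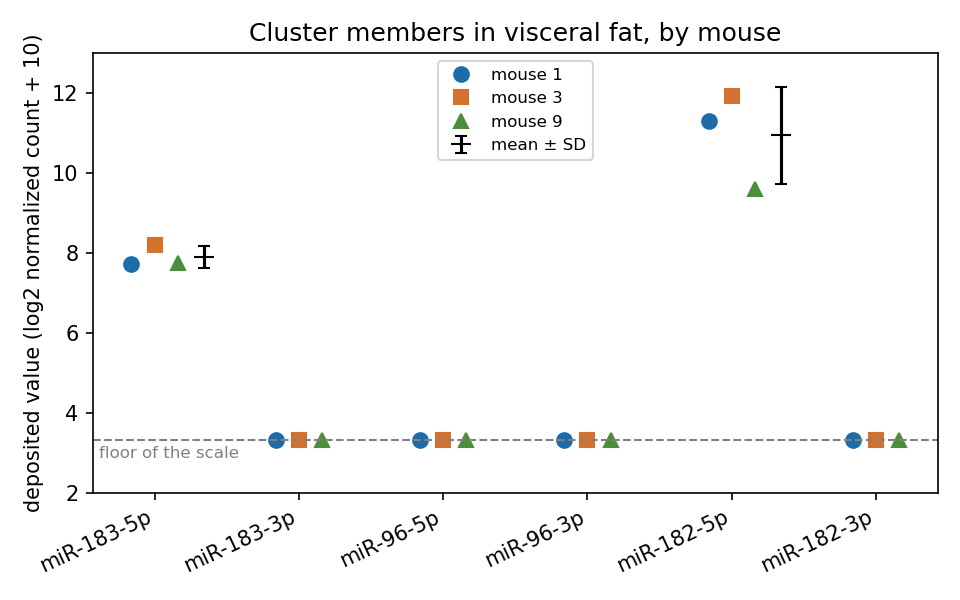
Deposited values (log2 of normalized count plus 10, vertical axis) of the 6 cluster members, with 1 point per mouse and the mean ± SD of 3 mice beside the members above the floor (dashed line). miR-182-5p lies between 9.59 and 11.94, miR-183-5p between 7.73 and 8.21, and the other 4 members lie on the floor in every mouse.

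The cluster as a whole was a small part of the miRNA content. Its summed share was 0.112% of the normalized counts in mouse 1, 0.174% in mouse 3 and 0.0402% in mouse 9, with a mean of 0.109% ± 0.0671 (SD, n = 3). miR-182-5p made up 92.5%, 93.2% and 78.7% of that sum in mice 1, 3 and 9, and miR-183-5p supplied all of the rest. In whole tissue, fewer cells that express a miRNA and less of it per cell cannot be told apart.

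Neighbours in mean level give the scale of these amounts. Just above miR-182-5p (10.94) stood miR-676-3p at 11.10 ± 0.23 log2 units, miR-98-5p of the let-7 family at 10.95 ± 0.04 and miR-222-3p at 10.95 ± 0.18. Just below it stood miR-193b-3p, which promotes brown adipocyte formation, at 10.93 ± 0.52, miR-195a-5p at 10.91 ± 0.49 and miR-139-5p at 10.90 ± 0.24. Each of these 6 means lay well within 1 SD of miR-182-5p (1.21), so its place among them is not set. The same held for the neighbours of miR-183-5p (7.90), which were miR-361-3p at 7.95 ± 0.09 and miR-224-5p at 7.89 ± 0.71. They were named after their values were seen.

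**Figure D2:**
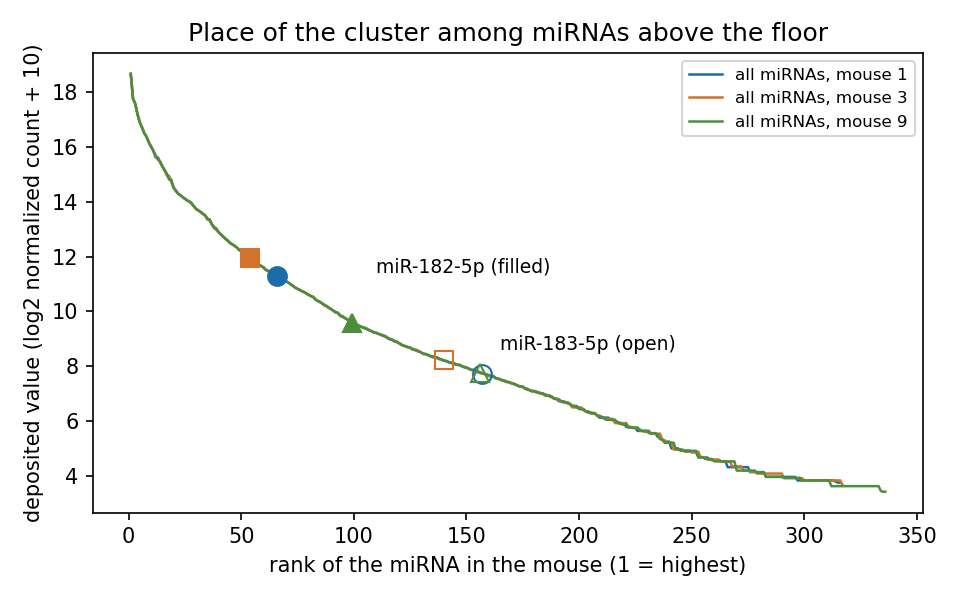
Deposited value against rank for all miRNAs above the floor in each mouse (lines, which nearly coincide), with miR-182-5p as filled and miR-183-5p as open symbols. miR-182-5p moves between rank 54 and rank 99 across mice, and miR-183-5p between rank 140 and rank 157.

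In both detected hairpins the 5p strand alone rose above the floor. The 5p value exceeded the 3p value by 7.96, 8.61 and 6.27 log2 units in mice 1, 3 and 9 for Mir182, and by 4.40, 4.88 and 4.43 for Mir183. The 3p strands were at the floor throughout, so these are distances to the floor and not strand ratios. Their mean size depends on the constant in the log. For Mir182 it was 7.62 as deposited, 5.64 with a constant of 40 and 10.93 with a constant of 1, and for Mir183 it was 4.57, 2.75 and 7.84. Both hairpins met the filter through the 5p strand alone, so the direction was fixed by the filter and no p is given. Of 129 hairpins in the limma fit, 96.9% were called, 51.2% with 5p higher and 45.7% with 3p higher, and 47 had 1 strand at the floor in all mice. With no filter, 157 of 202 were called. Mir96 had no value above the floor and was not tested.

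The product of the last hairpin stood above that of the first. miR-182-5p exceeded miR-183-5p 12.3-fold in mouse 1, 13.7-fold in mouse 3 and 3.70-fold in mouse 9, in linear normalized counts. On the log2 scale the difference was 3.56, 3.73 and 1.84 in the same order, with a mean of 3.04 ± 1.05 (SD, n = 3). miR-182-5p was higher in 3 of 3 mice, and the gap in mouse 9 was the smallest.

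That difference was set in a fit over 142 pairs of hairpins whose starts lie within 10 kb on one strand, each pair taken as upstream minus downstream. The estimate for Mir183 and Mir182 was -3.04 (SE 0.27), with an adjusted p of 2.00e-18 by limma's moderated test. Of the pairs tested, 98.6% were called in either direction and 53.5% with the downstream hairpin higher. The SE rests on a spread that limma pooled over pairs with 83.8 prior degrees of freedom, and 100 of the 142 pairs lie on chromosome 12. From the 3 mice of this pair alone the SE is 0.60, and an exact sign-flip test, two-sided, gives p = 0.25, the smallest that 3 mice allow (also 0.25 adjusted over the 3 pairs of 5p members). Without mouse 1 the difference was -2.78 with an adjusted p of 0.0658 by limma, which does not pass the threshold of 0.05. That fit had 0.87 prior degrees of freedom. Without mouse 3 the difference was smaller (-2.70) but passed, with an adjusted p of 3.08e-10 by limma. Without mouse 9 it was -3.64 and also passed (1.47e-15). Both of these fits had infinite prior degrees of freedom. The miss therefore does not show that the result rests on mouse 1.

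The pairs with Mir96 met the filter through the other hairpin alone, and miR-96-5p is listed at 0, so no fold or p is given for them. miR-182-5p and miR-183-5p were each above it in 3 of 3 mice. Of the 142 pairs, 51 had a partner at the floor in all mice.

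Unequal levels of mature miRNAs within a cluster were common in this fat. The levels compared belong to unlike sequences, and how they arise from a transcript was not tested. Among the 58 pairs with both miRNAs above the floor in all mice, a subset chosen after the values were seen, 93.1% were called, 51.7% with the downstream hairpin higher. The median size of their difference was 3.09 log2 units, and 29 had a larger one than Mir183 and Mir182 (adjusted p 0.000323 by limma in this subset). The gap itself varied more between mice than in most pairs. Its SD of 1.05 compared with a median SD of 0.34, and 1 pair exceeded it. That pair was Mir200b and Mir429 of the epithelial miR-200 family, with an SD of 1.06. Many of the 58 pairs lie on chromosome 12 and share hairpins, so they are not independent of each other. Of the pairs outside chromosome 12, including those with a miRNA at the floor, 39 of 42 were called.

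**Figure D3:**
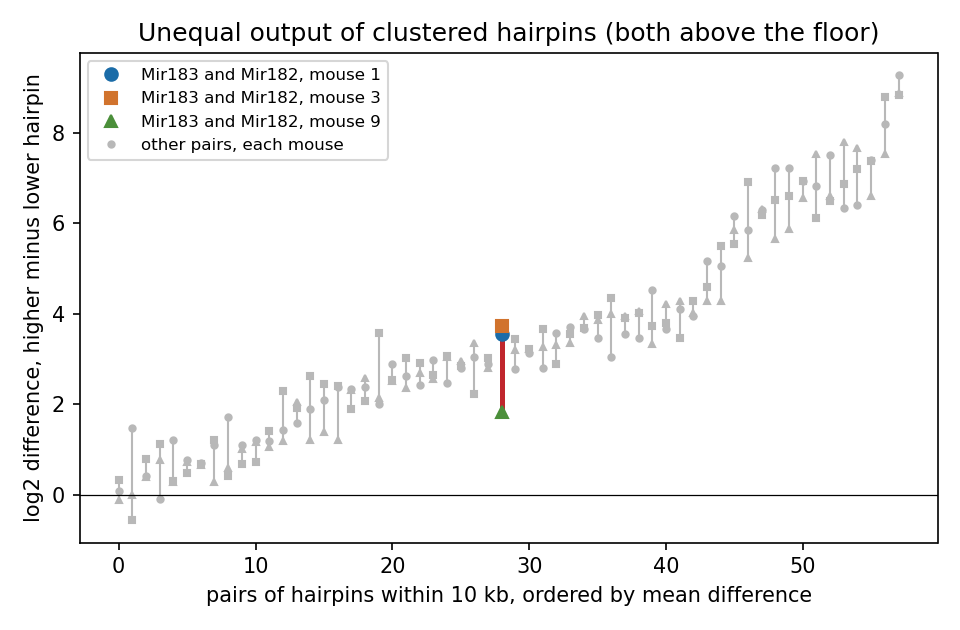
Log2 difference between the higher and the lower hairpin of each of 58 clustered pairs with both miRNAs above the floor (grey, 1 point per mouse, joined by a line), ordered by mean difference. Mir183 and Mir182 (coloured) lie in the middle of the order, with 3.56 and 3.73 in mice 1 and 3 and 1.84 in mouse 9.

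The spread between mice lay in miR-182-5p. Between mice 3 and 9 it differed 5.13-fold in normalized counts (2.34 log2 units), and between mice 1 and 9 3.26-fold (1.69). For miR-183-5p the values of mice 3 and 9 differed 1.39-fold (0.45 log2 units). The median SD was 0.22 log2 units over the 194 miRNAs whose mean reached 100 normalized counts. In that set 8 miRNAs had a larger SD than miR-182-5p and 80 a larger one than miR-183-5p. Of the 70 miRNAs with a higher mean than miR-182-5p, 1 had a larger SD, the muscle miR-133a-3p with 2.47. Without mouse 9 the SD of miR-182-5p was 0.46. Each mouse is 1 sample, so no test was made between them.

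**Figure D4:**
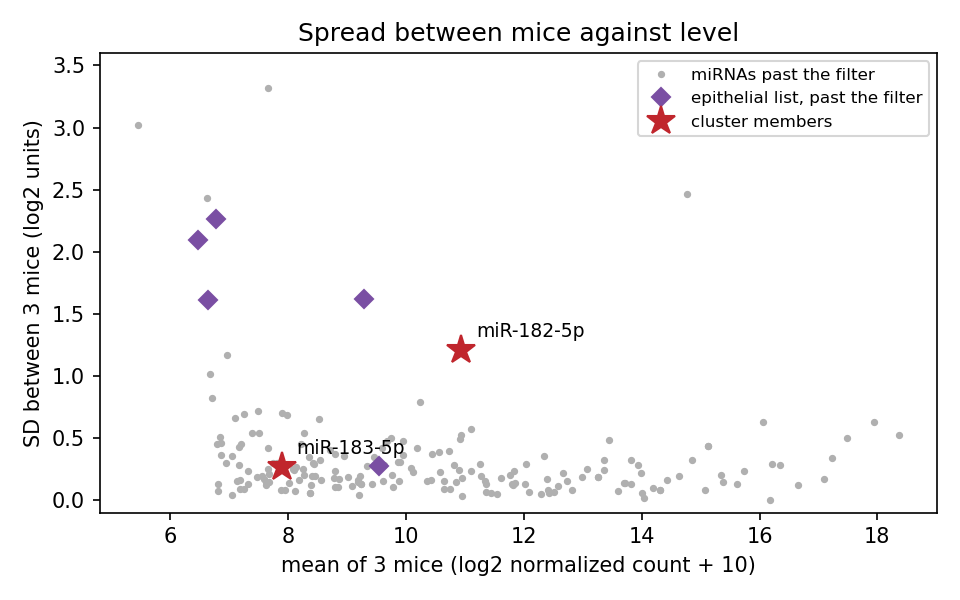
SD between 3 mice against the mean level, both in log2 units, for 194 miRNAs averaging 100 or more normalized counts (grey), the 5 epithelial list members in that set (diamonds) and the cluster members (stars). miR-182-5p has an SD of 1.21 against a median of 0.22, while miR-183-5p lies near the median with 0.27.

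Epithelial miRNAs and miR-182-5p had their lowest values in the same mouse. The list holds the miR-200 family, which keeps epithelial cells from turning mesenchymal, and miR-203-3p, miR-205-5p and miR-31-5p of skin and other epithelia. All 8 of its members had their lowest value in mouse 9, as did miR-182-5p, whereas 23.4% of the 363 miRNAs above the floor in at least 1 mouse did. The share was 26.8% of the 194 that averaged 100 or more. Mir200a, Mir200b and Mir429 lie within 10 kb of each other, so the 8 are not independent. The margin was small for miR-203-3p (9.35 log2 units in mouse 9, 9.42 in mouse 1) and miR-31-5p (5.64 and 5.78). miR-183-5p was lowest in mouse 1, by 0.03 log2 units. The highest value fell in mouse 3 for 6 of the 8 and for both detected cluster members, against 25.9% of the 363 and 23.7% of the 194. The summed level of the list was 1709, 4122 and 949 normalized counts in mice 1, 3 and 9. The cluster summed to 2689, 4193 and 968 in the same mice.

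The miR-200 family was near or at the floor in mouse 9. miR-200b-3p stood at 8.40, 7.73 and 4.19 log2 units in mice 1, 3 and 9, and miR-429-3p at 6.93, 8.29 and 4.19. miR-200a-3p had 6.81 and 6.08 in mice 1 and 3, miR-141-3p 5.24 and 5.74, and miR-200c-3p 4.66 and 5.60. These last 3 were at the floor in mouse 9. The skin-enriched members stayed well above it. miR-205-5p stood at 8.70, 11.12 and 8.04, miR-203-3p at 9.42, 9.85 and 9.35, and miR-31-5p at 5.78, 8.50 and 5.64. The SD of miR-203-3p was 0.27, as small as that of miR-183-5p. Of the 5 members that averaged 100 or more, 4 had a larger SD than miR-182-5p. For some of them this was partly fixed by that limit, which they met only through the mice where they were high. miR-200b-3p and miR-429-3p each had 8.19 normalized counts in mouse 9, and miR-31-5p had 44.9 and 39.7 in mice 1 and 9. The part of epithelial cells in the differences between mice was not tested.

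**Figure D5:**
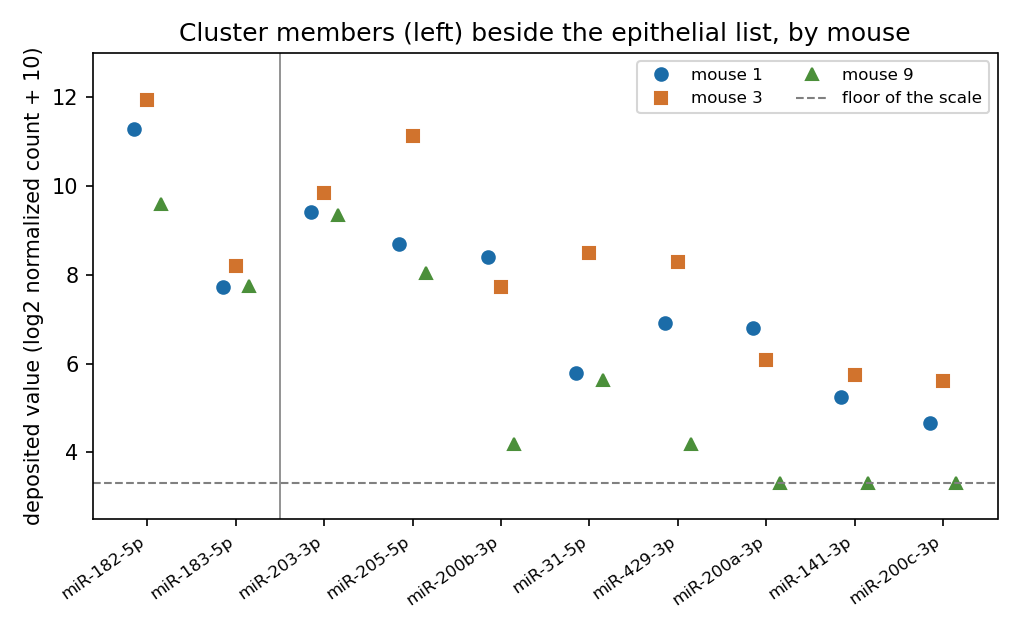
Deposited values (log2 of normalized count plus 10) in each mouse for the 2 detected cluster members, left of the vertical line, and for the 8 miRNAs of the epithelial list, right of it. Mouse 9 (triangles) is lowest for miR-182-5p and for all 8 list members, of which 3 lie on the floor (dashed line).

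Lists for other cell types give the setting, and those of the labelled tissue stood highest. The 7 adipocyte miRNAs were above the floor throughout and had a median of 14.32 log2 units. The highest were miR-143-3p (17.10 ± 0.17), miR-30a-5p (16.18 in each mouse) and miR-378a-3p (16.07 ± 0.63). Their summed share was 13.7%, 15.4% and 11.8% in mice 1, 3 and 9, and 4 of 7 were lowest in mouse 9. Among 6 leukocyte miRNAs, 4 had values above the floor in all mice. The lymphocyte miR-150-5p was highest (12.81 ± 0.08), then miR-342-3p (10.58 ± 0.22), then miR-142-5p (9.86 ± 0.30). Their summed share was 0.428%, 0.409% and 0.455% in mice 1, 3 and 9, and 0 of 6 were lowest in mouse 9. In the neuroendocrine list miR-375-3p had 8.90 in mouse 1, the floor in mouse 3 and 4.12 in mouse 9, and miR-7a-5p was at the floor. Of 8 neuronal miRNAs 4 were above the floor, and their sum of 442, 601 and 623 normalized counts was lowest in mouse 1. The highest were miR-128-3p (8.27 ± 0.54), miR-138-5p (7.66 ± 0.25) and miR-129-5p (5.20 ± 1.09). Of 10 testis and germ cell miRNAs 8 had no value above the floor, and of all 1251 rows 888 had none. miR-34c-5p (7.67 ± 0.15) and miR-34b-3p (4.13 ± 0.05) were above it in every mouse.

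Other miRNAs that share known roles with the cluster were unevenly present. The sterol pathway partner of the cluster is miR-33, which is encoded within the SREBP-2 gene and represses cholesterol export. Both miR-33-5p and miR-33-3p were listed at the floor in all 3 mice, as was miR-96-5p. So were 888 of all 1251 rows, so a shared floor does not set these miRNAs apart. Among 8 other miRNAs reported to repress Foxo1, 6 had values above the floor in all mice, and miR-153-3p and miR-370-3p had none. miR-27b-3p (15.07 ± 0.08) and miR-27a-3p (12.43 ± 0.06), which inhibit adipocyte formation, and miR-186-5p (12.28 ± 0.05) stood above miR-182-5p in every mouse. miR-139-5p averaged 10.90 ± 0.24, so its mean lay within the spread of miR-182-5p. The myeloid miR-223-3p averaged 9.45 ± 0.34 and the neuronal miR-9-5p 4.56 ± 0.88. miR-182-5p exceeded miR-223-3p in 3 of 3 mice, though in mouse 9 the values were 9.59 and 9.52. The summed share of these 8 was 1.92%, 2.06% and 1.95% in mice 1, 3 and 9, against 0.112%, 0.174% and 0.0402% for the cluster.

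By likeness of pattern over the 3 mice, 5 miRNAs lay nearest to the mean pattern of miR-182-5p and miR-183-5p. That pattern was 0.09, 0.65 and -0.74 log2 units from the mean in mice 1, 3 and 9. It averages unlike members, with SDs of 1.21 log2 units for miR-182-5p and 0.27 for miR-183-5p. miR-183-5p was lowest in mouse 1, so nearness to the average is not nearness to either member. The nearest were miR-5115, with a root mean square distance of 0.04 log2 units, and miR-378a-5p with 0.07. miR-872-5p followed with 0.11, miR-378a-3p with 0.12 and miR-193b-3p with 0.18. miR-378a, whose hairpin lies in the coactivator gene Ppargc1b, was thus near this average with both strands. miR-378a-5p stood at 10.29, 10.99 and 9.42 log2 units in mice 1, 3 and 9. Over 3 samples such likeness is weak, and it is given as a description.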

How the data were processed

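The 1 table used holds deposited log2 values of 1251 mature miRNAs in 3 samples. Per the series' design text, the authors used the Gunaratne pipeline, scaled read counts by the total of usable reads, added 40, and mapped about 13800000 reads per sample to mm10. The deposited log2 values have their floor at 10 on the linear scale, so 10 was subtracted to give normalized counts. Neither aligner nor miRNA annotation is given in the sources used here. Per the submitters' processing notes the build was mm10.

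Tests used limma 3.58.1 (R 4.3.3) with Benjamini-Hochberg adjustment at 0.05, on items whose larger miRNA had a mean of at least 100 normalized counts. Clustered pairs came from GENCODE M21 hairpins within 10 kb, each mature miRNA having 1 locus and represented by its larger strand. Exact sign-flip tests used Python 3.11.15 with scipy 1.17.1. Sequences are RefSeq's (1001 of 1251 rows matched).

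On simulated data the pair test recovered 71 of 71 pairs shifted by 3 log2 units among 142, with 3 false calls, and 59 of 71 shifted by 1, with 1 false call. The strand test recovered 62 of 64 hairpins shifted by 3 among 129, with 1 false call, and 50 of 64 shifted by 1, with 4. The simulated noise was independent between items, whereas the real pairs share hairpins. The false calls are therefore no measure of those among the real pairs.

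The members and lists (adipocyte, epithelial, neuroendocrine, neuronal, sterol-regulated, Foxo1-repressing, testis and germ cell, leukocyte) were chosen with earlier results of these data known. The naming rule took the members, 3 neighbours in level on each side of the highest member, miRNAs sharing a seed, the 5 nearest patterns, every epithelial, sterol and Foxo1 list member above the floor and up to 3 of each other list.

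Alternatives were an added constant of 1 or 40, median-ratio scaling, no filter or a mean of at least 1000, a trended prior, a 50 kb window, miRNAs of several loci, and leaving out each mouse. Others, pairs with both miRNAs above the floor and pairs outside chromosome 12, were chosen after the data were seen.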

Additional observations from a re-analysis of the deposited data

How the results depend on the processing

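Under a constant of 1 or 40 or median-ratio scaling, the mean of miR-182-5p ran from 10.93 to 10.97 log2 units. That of miR-183-5p ran from 7.84 to 8.07. With 1 mouse left out the means ran from 10.44 to 11.61 and from 7.74 to 7.98, and the cluster's share from 0.0760% to 0.143%. Leaving out 1 of 3 mice cannot move a mean by 1 SD, and scaling a mouse cannot change a share, so neither tests stability. The SD of miR-182-5p ran from 0.46 to 1.66 when 1 mouse was left out, and that of miR-183-5p from 0.02 to 0.34. Strand calls made up 96.9% of 129 hairpins and were 67 of 67 at a mean of at least 1000 and 157 of 202 with no filter. The number of pair calls was 140 of 142. It was 237 of 359 with no filter, 59 of 60 at a mean of at least 1000, 263 of 268 within 50 kb, 54 of 58 with both miRNAs above the floor and 39 of 42 outside chromosome 12. The number tested changed with each. The difference of Mir183 and Mir182 ranged from -3.64 to -2.70 when 1 mouse was left out, and without mouse 1 it no longer passed (-2.78, adjusted p 0.0658 by limma). Under its other alternatives it passed, with adjusted p from 8.41e-28 to 0.00235. The smallest of these came from fits with infinite prior degrees of freedom, where this pair's own spread carries no weight. The fit without mouse 1 had 0.87 prior degrees of freedom, whereas those without mouse 3 or mouse 9 had infinite ones. The miss without mouse 1 therefore does not show that the result rests on that mouse. Unknown depth limits what the floor can show. Median-ratio scaling shifted mice by at most 0.06 log2 units. The columns already hold nearly the same values, so a small shift was nearly fixed in advance and says little about normalization. No paired analysis was possible because there is 1 group, so no mouse has a partner in another group. The differences between strands and between hairpins were each taken within a mouse.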
